A study of Arabidopsis thaliana with 6 samples.

Results

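The Mediator subunits described here were 10 of the 36796 genes counted in the RNA-seq analysis of *ref4-3* and wild-type plants, 7 of the tail module and 3 of the kinase module. They were chosen by locus identifier: *MED5b* (AT2G48110, *REF4*), *MED5a* (AT3G23590, *RFR1*), *MED2* (AT1G11760), *MED16* (AT4G04920), *MED23* (AT1G23230), *MED25* (AT1G25540) and *MED14* (AT3G04740) for the tail, and *MED12* (AT4G00450), *MED13* (AT1G55325) and *CDK8* (AT5G63610) for the kinase module. The study compared *ref4-3* with wild-type plants of the Col-0 ecotype, with 3 libraries per genotype, each made from the unbolted rosettes of 5 plants at 21 days. All plants were grown on soil at 22 °C with 16 h of light at 150 μE and 8 h of dark. They were harvested 6 h into the light period. Seeds were first kept in the cold and dark for 3 days. *ref4-3* is a single semidominant point mutation that changes 1 amino acid of MED5b, so the gene is still present and transcribed in the mutant. A change of this kind is not visible in gene counts, and genotypes rest on the labels.

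Mediator is a large complex that links transcription factors bound at enhancers and promoters to RNA polymerase II. Its head and middle modules contact the polymerase, its tail receives signals from transcription factors, and its kinase module, built around CDK8 with a cyclin C, MED12 and MED13, binds reversibly and modulates the rest. In Arabidopsis, *MED5a* and *MED5b* are a pair of related tail genes known for restraining phenylpropanoid metabolism. The comparison asked whether a plant with an altered MED5b protein also has altered transcript levels of *MED5b*, its relative, and its partner subunits.

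No member was called different between *ref4-3* and wild-type plants. In the two-sided edgeR quasi-likelihood test over 23050 genes, with an adjusted p under 0.05 as the threshold, 0 of 10 members were called, where 20.4% of all tested genes were called. The unadjusted p was under 0.05 for 0 of 10 members, and the share of all tested genes at that level was not counted. The edgeR exact test and DESeq2 also called 0 of 10, against 26.5% and 26.8% of all tested genes. By direction, 0 members were called higher and 0 lower in *ref4-3*, against 8.52% and 11.9% of all tested genes, and 0 passed the call with a fold change above 2, against 9.72%. Among all calls 41.8% were higher in *ref4-3*, but 74.1% were when libraries were scaled by their totals alone and 29.9% when no filter on low counts was used. The 3 libraries of 1 genotype lay wholly above or below the other for none of the members, whereas *ref4-3* lay above wild type for 22.5% and below it for 22.8% of all tested genes.

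The members' log2 fold changes were small on the scale of this transcriptome. Their median size without regard to sign was 0.18, against 0.38 over all tested genes, and 9 of 10 lay below the median of all tested genes in size. Small sizes were not particular to the members. The median was 0.26 for 27 other tested Mediator genes and 0.15 for 15 RNA polymerase II genes. In sign, 3 were positive and 7 negative, and the median was -0.10, against 0.01 over all tested genes. The 95% intervals of all 10 lay between -0.95 and 0.76, so each lay within a 2-fold difference in either direction. All 10 members passed the filter on low counts, with 122 to 1450 counts per library, and ranked between the 33.4 and 74.5 percentile of tested genes by level. In whole rosettes, a lower transcript level per cell cannot be told apart from fewer cells of a type.

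**Figure D1:**
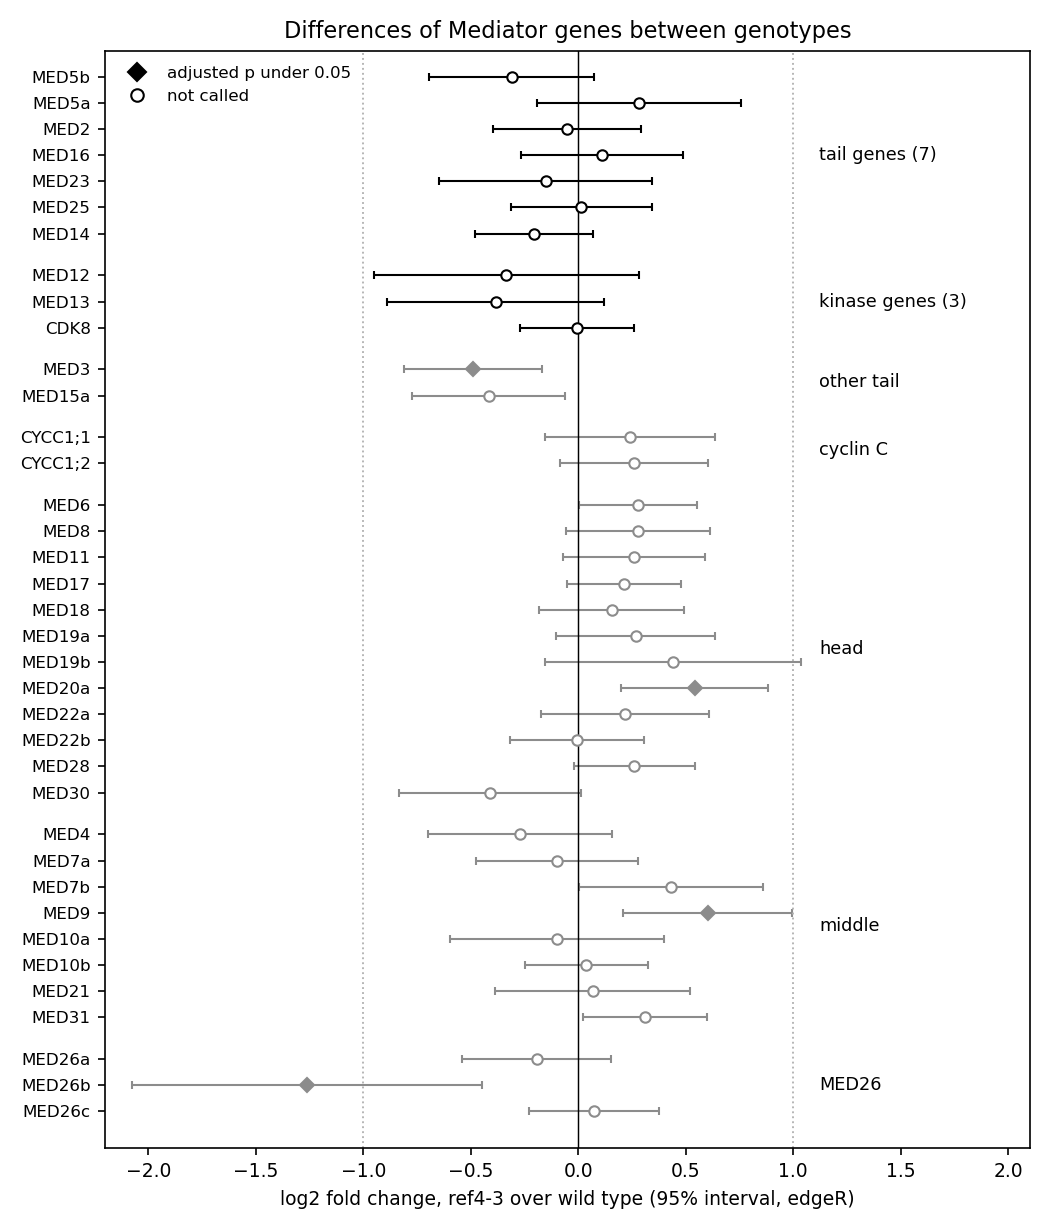
Log2 fold change of *ref4-3* over wild type with its 95% interval (horizontal axis) for the 10 tail and kinase genes (black) and 27 other Mediator genes (grey). Filled diamonds mark an adjusted p under 0.05 in edgeR, and dotted lines mark a 2-fold difference. All 10 black symbols are open, with intervals between -0.95 and 0.76.

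*MED5b* encodes the subunit that *ref4-3* alters. It had 573, 545 and 542 counts in the *ref4-3* libraries and 636, 764 and 433 in the wild-type libraries. As CPM (counts scaled to a common library size) after TMM, a factor that corrects library size for composition, this gave 16.6, 18.7 and 16.8 in *ref4-3* and 20.2, 26.5 and 17.9 in wild type. The *ref4-3* libraries lay close together, and the highest of them lay above the lowest wild-type library. The means were 17.4 ± 1.15 CPM in *ref4-3* and 21.5 ± 4.49 CPM in wild type (SD, n = 3 each). The log2 fold change was -0.31 ± 0.16 (SE), with an adjusted p of 0.202 in edgeR and a 95% interval of -0.69 to 0.07.

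*MED5a*, whose product is the other MED5 protein, deviated the opposite way and was not called either. It had 28.4, 43.9 and 34.9 CPM in *ref4-3*, against 31.2, 34.0 and 22.9 CPM in wild type. The groups overlapped, with *ref4-3* replicate 2 the highest of all and wild-type replicate 3 the lowest. The log2 fold change was 0.28 ± 0.20 (SE), with an adjusted p of 0.336 in edgeR and a 95% interval of -0.19 to 0.76.

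Because counts of both genes come from 1 library, their ratio does not depend on how libraries are scaled. Per kilobase of exon, *MED5b* stood at 0.616, 0.447 and 0.505 of the level of *MED5a* in the *ref4-3* libraries and at 0.679, 0.819 and 0.819 in the wild-type libraries. The groups did not overlap: the highest *ref4-3* ratio, in replicate 1, lay below the lowest wild-type ratio, also in replicate 1. Non-overlap was common for single genes, with *ref4-3* wholly above wild type for 22.5% and below it for 22.8% of all tested genes. The share over ratios of other gene pairs was not counted. The mean ratio was 0.523 ± 0.0857 in *ref4-3* and 0.773 ± 0.0808 in wild type (SD, n = 3 each). *MED5a* was thus the more abundant transcript of the pair in all 6 libraries. In log2 units of the raw count ratio, the means were -1.02 ± 0.23 in *ref4-3* and -0.45 ± 0.16 in wild type, a difference of -0.57, or 0.673-fold. The exact two-sided permutation test gave p = 0.1, the smallest value that the 20 arrangements of 3 against 3 libraries allow, so the test could not pass 0.05. The difference ran from -0.70 to -0.46 when each library was left out in turn.

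Expressed as a share, *MED5b* supplied 37.0, 29.9 and 32.5% of the pair's counts in *ref4-3*, against 39.3, 43.8 and 43.8% in wild type. The summed level of the pair was 45.0, 62.6 and 51.6 CPM in *ref4-3* and 51.4, 60.6 and 40.8 CPM in wild type. These sums overlapped, with a log2 difference of 0.07 and an exact two-sided permutation p of 0.7. The genotypes thus did not overlap in the balance of the 2 transcripts, as was common here for single genes, but overlapped in their sum. The ratio combines 2 opposite deviations, neither of which was called.

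**Figure D2:**
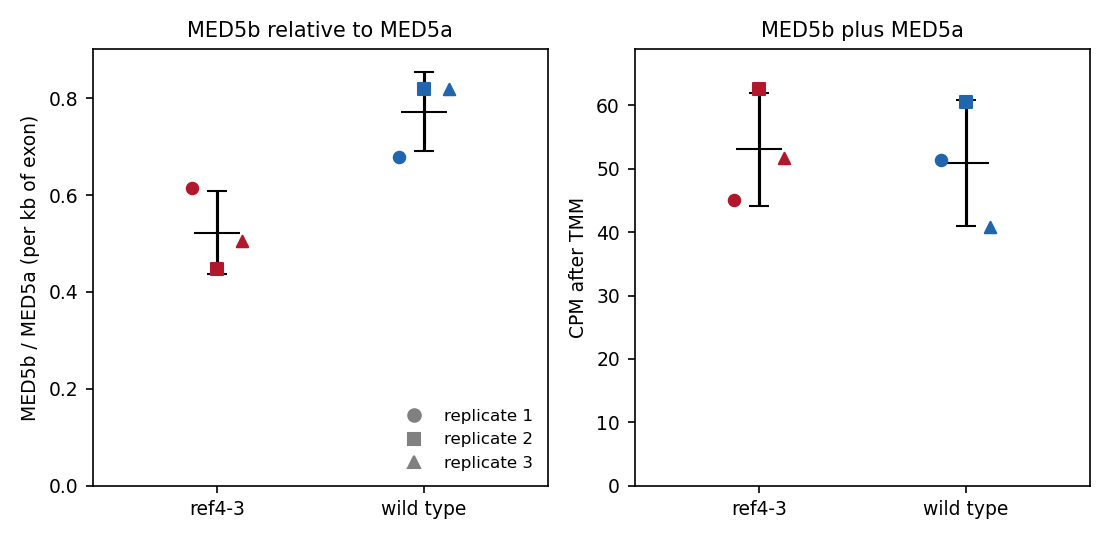
Left, ratio of *MED5b* to *MED5a* per kilobase of exon. Right, summed CPM of both genes. Each point is 1 library, with *ref4-3* in red and wild type in blue, and bars give the mean and SD of 3 libraries. The ratios of *ref4-3* (0.447 to 0.616) lie below those of wild type (0.679 to 0.819), while the sums overlap.

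A ratio between related genes rests on reads being assigned to the right copy, so the sequences of both genes were compared in the RefSeq TAIR10.1 assembly. *MED5b* spans chr2:19673293-19679711 on the plus strand with 14 exons, and *MED5a* spans chr3:8467398-8473627 on the plus strand with 12 exons. Their coding sequences predict proteins of 1275 and 1309 residues, with 684 of 1228 aligned residues (55.7%) identical. At the base level, 60.6% of aligned codon bases were identical, the longest identical run was 16 bases, and the transcripts shared 0 stretches of 50 bases. The 106 bases around that longest run are shown to let the pair be compared base by base where its longest exact match lies. Capitals mark the 72 bases shared at the same position, and both stretches are coding sequence, chr2:19678577-19678682 in exon 14 of *MED5b* and chr3:8472558-8472663 in exon 12 of *MED5a*, read 5′ to 3′ on the plus strand.
MED5b: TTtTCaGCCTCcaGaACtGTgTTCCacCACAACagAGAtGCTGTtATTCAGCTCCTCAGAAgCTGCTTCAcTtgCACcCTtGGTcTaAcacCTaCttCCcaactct
MED5a: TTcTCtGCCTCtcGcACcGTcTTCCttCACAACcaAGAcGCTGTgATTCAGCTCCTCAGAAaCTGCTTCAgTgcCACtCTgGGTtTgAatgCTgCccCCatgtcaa
Lower-case differences interrupt the match every few bases outside the central run. No other transcript of the annotation was at least 95% identical to any of the 10 members over most of its length. A G-box (CACGTG, its own reverse complement) is the motif bound by MYC2 and related factors. It was present in the 250 bases before the start of 0 of 10 members, and in 6.49% of 27443 protein-coding genes. At that share, 0 of 10 is not read as a result about the members. The window reaches into the neighbouring gene for *MED5b*, *MED23* and *CDK8*, with gaps of 0, 14 and 205 bases.

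The other 5 tail genes had log2 fold changes nearer to 0 than those of the MED5 pair. *MED14*, the *STRUWWELPETER* gene, encodes the scaffold to which the tail attaches, and had 35.5, 31.1 and 30.1 CPM in *ref4-3* against 34.2, 39.4 and 38.0 CPM in wild type. Its log2 fold change was -0.21, with a 95% interval of -0.48 to 0.07 and an adjusted p of 0.232 in edgeR. *MED16*, known as *SFR6* for its part in freezing tolerance, had 21.3, 28.2 and 23.4 CPM in *ref4-3* against 22.6, 26.0 and 18.9 CPM in wild type, and its log2 fold change was 0.11 (95% interval -0.27 to 0.49). *MED23*, a large tail subunit, had 18.3, 22.4 and 21.3 CPM in *ref4-3* against 23.0, 29.6 and 16.3 CPM in wild type, and its log2 fold change was -0.15 (95% interval -0.65 to 0.34). For *MED23* the wild-type libraries were spread around the *ref4-3* libraries, and for *MED16* the highest library was of *ref4-3* and the lowest of wild type.

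*MED25*, also *PFT1*, encodes the subunit through which jasmonate and light-quality signals are known to reach Mediator, and it binds MYC2. Its level was 20.6, 21.1 and 20.0 CPM in *ref4-3* and 17.8, 24.1 and 19.1 CPM in wild type, with means of 20.5 ± 0.560 and 20.3 ± 3.33 CPM in *ref4-3* and wild type (SD, n = 3 each). All *ref4-3* libraries lay inside the wild-type range, and the log2 fold change was 0.01 (95% interval -0.31 to 0.34). *MED2*, the shortest of the 10 transcripts at 901 bases of exon, had 4.82, 5.08 and 4.79 CPM in *ref4-3* against 4.76, 5.45 and 5.03 CPM in wild type. Its log2 fold change was -0.05 (95% interval -0.40 to 0.29).

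In the kinase module, *CDK8* (*HEN3*) encodes the cyclin-dependent kinase itself. It had 21.7, 21.9 and 19.9 CPM in *ref4-3* against 23.1, 20.0 and 20.6 CPM in wild type, and its log2 fold change was -0.01 with an adjusted p of 0.968 in edgeR and a 95% interval of -0.27 to 0.26. *MED12* (*CRYPTIC PRECOCIOUS*) and *MED13* (*GRAND CENTRAL*) encode the 2 large subunits of the kinase module, which time the patterning of the embryo. *MED12* had 28.2, 26.1 and 28.6 CPM in *ref4-3* against 31.7, 50.4 and 22.5 CPM in wild type. *MED13* had 25.2, 23.3 and 21.0 CPM in *ref4-3* against 27.9, 40.6 and 22.1 CPM in wild type. In both, the 3 *ref4-3* libraries were close together, and wild-type replicate 2 stood far above the other 5. The log2 fold change was -0.33 ± 0.26 (SE) for *MED12*, with an adjusted p of 0.375 in edgeR, and without wild-type replicate 2 it was 0.01. For *MED13* it was -0.38 ± 0.22 (SE), with an adjusted p of 0.228, and without that library it was -0.13.

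**Figure D3:**
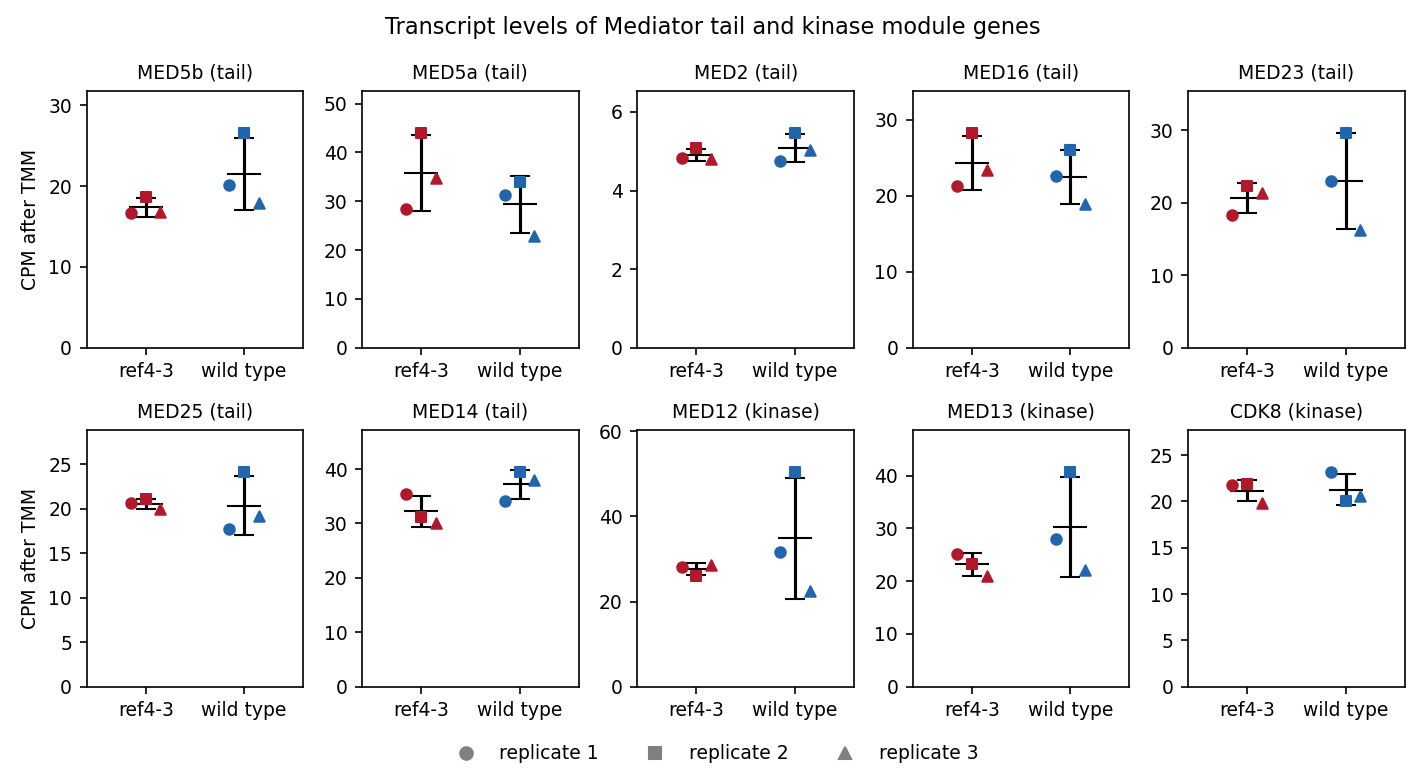
Transcript level in CPM after TMM scaling (vertical axes, from 0) of the 10 genes, with *ref4-3* in red to the left of wild type in blue. Symbols mark the replicates and bars the mean and SD of 3 libraries. The groups overlap for all 10 genes, and the wild-type spread is widest for *MED12* (22.5 to 50.4 CPM).

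The direction of *MED5b*, *MED5a* and *MED13* was kept under all 14 alternatives of test, scaling, filter and left-out library, with log2 fold changes of -0.47 to -0.06, 0.09 to 0.54 and -0.60 to -0.13. Each of the other 7 members changed sign under 1 to 5 of them, *CDK8* under 5 and *MED25* under 4, so no direction is given for them. Scaling by library totals alone raised the median log2 fold change of all genes by 0.25, and relative to that shift *MED5b* (-0.06) still lay below the median gene (0.26).

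Set against each other within a library as log2 CPM per kb of exon, the mean of the 3 kinase genes minus that of the 7 tail genes was -0.05, -0.32 and -0.22 in *ref4-3*, and 0.01, 0.07 and -0.17 in wild type. The means were -0.20 ± 0.14 in *ref4-3* and -0.03 ± 0.13 in wild type (SD, n = 3 each), a difference of -0.17, and the groups overlapped. Without the correction for length, the kinase genes, of which *MED12* and *MED13* are the longest of the 10, averaged 0.31 log2 CPM more than the tail genes in *ref4-3* and 0.47 more in wild type. A fixed exon length per gene cancels between genotypes, so the difference between them is the same by construction. The correction does not remove differences between libraries that depend on length. Summed over all 10 genes, the level was 228 ± 12.1 CPM in *ref4-3* and 245 ± 47.0 CPM in wild type.

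Levels were compared between genes per kilobase of exon. *CDK8* was the most abundant transcript in all 6 libraries, with 10.6 ± 0.564 CPM per kb in *ref4-3* and 10.6 ± 0.826 in wild type (SD, n = 3 each). *MED13* was the least abundant in 5 libraries and *MED12* in the remaining 1, and *MED13* averaged 3.02 ± 0.274 CPM per kb in *ref4-3* and 3.94 ± 1.24 in wild type. In *ref4-3* the order from high to low was *CDK8*, *MED5a*, *MED25*, *MED14*, *MED2*, *MED16*, *MED5b*, *MED23*, *MED12* and *MED13*. In wild type *MED14* stood before *MED25* and *MED5b* before *MED16*, with the rest in the same order. Of 9 neighbouring pairs, only *MED23* over *MED12* in *ref4-3*, and only *CDK8* over *MED5a* in wild type, had library ranges that did not overlap. *MED5a* held 14.6 ± 2.44% of the members' summed level per kb in *ref4-3* and 11.5 ± 1.11% in wild type, and *MED5b* held 7.49 ± 0.0716% in *ref4-3* and 8.84 ± 0.586% in wild type (SD, n = 3 each).

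The members were less variable among *ref4-3* libraries than among wild-type libraries for 8 of 10 genes. The share of all tested genes with this order was not counted. The coefficient of variation ran from 2.72 to 21.8% in *ref4-3* and from 6.88 to 40.8% in wild type. Wild-type replicate 2 was above its group mean for 9 of 10 members and wild-type replicate 3 for 1 of 10. The gap between these libraries was wider for longer transcripts: replicate 2 was 2.24 times replicate 3 for *MED12* (8204 bases of exon) and 1.84 times for *MED13* (7664 bases), but 1.08 times for *MED2* (901 bases) and 0.970 times for *CDK8* (2001 bases). *MED14* was an exception, at 1.04 times with 5588 bases. Over the 10 members, exon length and this log2 gap had a Pearson r of 0.71 and a Spearman rho of 0.67, a description across genes of the same 2 libraries.

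The same held across all tested genes, whose median log2 gap was -0.32 for transcripts under 1 kb and 0.34 for those over 6 kb. The share of genes called was 16.7% with 4 to 6 kb of exon, the class of 5 members, 8.72% over 6 kb, the class of *MED12* and *MED13*, and 20.2% under 1 kb. Wild-type replicate 2 also had counts on 27913 genes, where the other libraries had counts on 32015 to 34884. In a fit added after seeing the data, in which the trend with length was removed within each library, edgeR still called 0 of 10 members while 23.3% of all genes were called. The lowest adjusted p was then 0.0583, for *MED13* at a log2 fold change of -0.44, and that of *MED5b* was 0.103. Over all 14 alternatives the adjusted p ranged from 0.0583 to 0.633 for *MED13* and from 0.0843 to 0.806 for *MED5b*. The part of this length trend in the wild-type spread of single members was not tested.

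**Figure D4:**
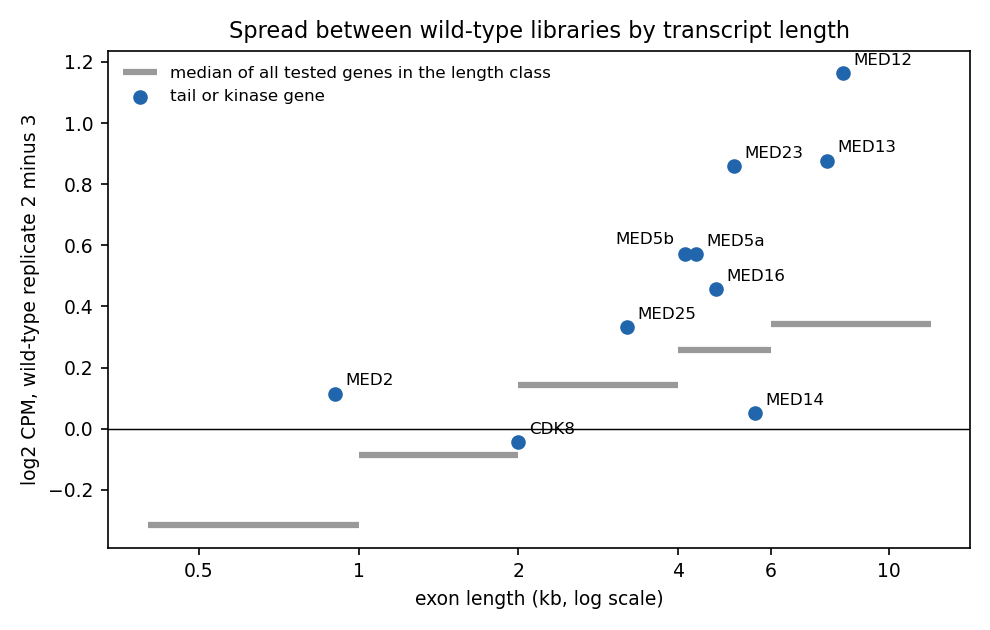
Log2 CPM of wild-type replicate 2 minus that of wild-type replicate 3 (vertical axis) against exon length (horizontal axis, log scale) for the 10 genes (points) and the median of all tested genes per length class (grey lines). *MED12*, the longest transcript, stands highest at 1.16, and the grey lines climb from -0.32 to 0.34.

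The rest of Mediator gave the background for these genes. Of 29 further Mediator genes, 27 were tested, and 2 were called higher and 2 lower in *ref4-3* in edgeR, with 23 not called, where 20.4% of all tested genes were called in either direction, 8.52% higher and 11.9% lower. In the head module, which holds the polymerase, *MED20a* rose to 17.4, 23.7 and 19.1 CPM in *ref4-3*, against 14.5, 12.9 and 14.0 CPM in wild type (log2 fold change 0.54, adjusted p = 0.0404). In the middle module, *MED9* rose to 10.7, 11.0 and 11.7 CPM in *ref4-3*, against 7.14, 6.04 and 8.91 CPM in wild type (log2 fold change 0.60, adjusted p = 0.0440). The *ref4-3* libraries lay wholly above wild type for both genes, as they did for 8 of these 27 genes and 22.5% of all tested genes.

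The *ref4-3* libraries of both further tail genes lay wholly below wild type, as did those of 22.8% of all tested genes. *MED3* fell to 8.54, 10.9 and 9.90 CPM in *ref4-3*, against 14.0, 14.0 and 13.2 CPM in wild type (log2 fold change -0.49, adjusted p = 0.0434 in edgeR). *MED15a*, which binds transcription factors, had 26.9, 27.4 and 26.4 CPM in *ref4-3* against 35.9, 42.9 and 28.9 CPM in wild type, and was not called (log2 fold change -0.42, adjusted p = 0.0902 in edgeR). Of 3 genes for MED26, a subunit that joins Mediator to elongating polymerase in animals, *MED26b* fell to 18.2, 19.3 and 21.6 CPM in *ref4-3*, against 25.1, 74.5 and 42.1 CPM in wild type. Its log2 fold change was -1.26 ± 0.35 (SE), with an adjusted p of 0.0425 in edgeR, and it was the only one of the 27 called at more than 2-fold. These calls were close to the threshold and none was kept by more than 1 of the 6 fits that left out a library. Over all tested genes, those fits called 4.09 to 18.7%, against 20.4% with all libraries. *MED20a* was kept without *ref4-3* replicate 1, *MED9* without wild-type replicate 3, *MED26b* without wild-type replicate 1, and *MED3* in none. Over all 14 alternatives these 4 genes kept their direction, and the adjusted p reached 0.118 for *MED20a*, 0.147 for *MED9*, 0.273 for *MED3* and 0.119 for *MED26b*. The log2 fold change of *MED26b* ranged from -1.59 to -0.79.

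The modules outside the tail had no common size of difference. Among the 12 tested head genes the median was 0.26 on the log2 scale, with 10 positive and 1 of 12 called, against 20.4% of all tested genes. The *ref4-3* libraries lay wholly above wild type for 6 of the 12, against 22.5% of all tested genes. Among the 8 middle genes the median was 0.05. Both genes for cyclin C, the partner of CDK8, were not called, the larger being *CYCC1;2* at a log2 fold change of 0.26. Of 15 tested genes for RNA polymerase II subunits, *NRPB6A* alone was called (log2 fold change 0.54, adjusted p = 0.0493 in edgeR), and *NRPB9A* had the largest log2 fold change, 0.91, with an adjusted p of 0.0515. *NRPB6A* was called in 1 of the 6 fits that left out a library, the one without wild-type replicate 3. Those fits called 4.09 to 18.7% of all tested genes. Its adjusted p reached 0.160 over the 14 alternatives.

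Organ markers were summed in each library as a check of the labelled tissue. The summed level of 4 rosette leaf markers was 22486 to 29316 CPM in *ref4-3* and 43046 to 47211 CPM in wild type. In edgeR, 2 of the 4, *CAB1* and *RCA*, were called lower in *ref4-3*, against 11.9% of all tested genes. *RBCS1A* was not called (log2 fold change -0.58, adjusted p = 0.0595 in edgeR). Its *ref4-3* libraries lay wholly below wild type, as did those of 22.8% of all tested genes. *CA1* had a log2 fold change of 0.02. The 5 flower markers summed to 5.40 to 9.16 CPM in *ref4-3* and 10.9 to 15.1 CPM in wild type, with 1 of the 5, *SEP3*, called lower, against 11.9% of all tested genes. The 4 root markers summed to 0.995 to 1.86 CPM in *ref4-3* and 0.278 to 1.174 CPM in wild type, and 3 seed markers to 2.44 to 3.71 CPM in *ref4-3* and 0.347 to 2.13 CPM in wild type. The root sums overlapped, and those of the other lists did not. The share over sums of other genes was not counted. Among the root and seed lists, 1 root and 2 seed markers passed the filter on low counts, and none was called in edgeR. The unadjusted p was under 0.05 for 1 seed marker. Leaf markers were thus by far the most abundant of these lists in every library. Their part in the values of the Mediator genes was not tested.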

How the data were processed

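RNA was measured in 6 libraries, 3 per genotype. Per the labels, poly(A) RNA was made into directional libraries. The authors trimmed reads with fastp 0.23.2, mapped them to TAIR10 with hisat2 2.2.1, used SAMtools 1.17 for sorting and obtained counts for Araport11 genes, naming DESeq2 and limma for this. The strand setting and the handling of multiply mapped reads are not given in the sources used here. The deposited values are raw gene counts, with 0 columns left unused. Totals were 26060005 to 32879414 per library, so that 3 counts equal 0.0912 to 0.115 CPM before TMM scaling. As a floor, these values cover counting error only.

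Genes were kept by filterByExpr (minimum count 10, minimum total 15) and tested on genotype with edgeR 4.0.16 in R 4.3.3 (TMM, quasi-likelihood, two-sided, Benjamini-Hochberg over 23050 genes, threshold 0.05). Intervals of 95% used the moderated degrees of freedom and are not adjusted. CPM are TMM-scaled, and log2 CPM add a prior count of 0.5. Library replicates are separate pools of plants. The ratio of *MED5b* to *MED5a* was tested by exact permutation. Exon lengths, positions and sequences came from the RefSeq annotation of TAIR10.1, a build named differently from that of the counts, and all 10 members matched it. Coding sequences were compared with Biopython 1.88, and transcripts with BLAST+ 2.17.0. The annotation does not give every Mediator name used here, and *MED2* is *MED32* there. *MED12* shares 310 and 80 bases with 2 genes on the opposite strand, of which AT4G00460 had 1.80 CPM in *ref4-3* and 1.61 CPM in wild type, and *MED5a* shares 1 base with its neighbour.

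The members and lists were chosen with earlier results of these data known. Named were all 10 members, each gene called in the other Mediator and polymerase lists, the gene with the largest fold change per list, and the 5 genes most like *MED5b*. Alternatives were the edgeR exact test, DESeq2 1.42.0, RLE factors, library totals alone, other filters, the replicate number as a block, each library left out and, added after seeing the data, removal of a length trend. The procedure was tested on simulated counts. Figures were drawn with matplotlib 3.10.9.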

Additional observations from a re-analysis of the deposited data

How the results depend on the processing

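The 10 members gave 0 calls under all 14 alternatives, with a lowest adjusted p of 0.0583 (*MED13*, length trend removed). Unadjusted p-values under 0.05 in edgeR were reached by 4 of 10 members without wild-type replicate 3 and by 2 with the length trend removed. They were reached by 2 with no filter and by 1 with library totals alone. In these 4 fits, 18.7, 23.3, 13 and 25.4% of all genes were called at an adjusted p under 0.05. The share of all genes at the unadjusted level was not counted, so these counts are not read as a result about the members. The *MED5b* to *MED5a* difference and the kinase minus tail difference between genotypes kept their sign under every alternative run for them, the second ranging from -0.27 with medians to -0.10. Numbers 1 to 3 are shared by the genotypes, but the deviations of same-numbered libraries had correlations of -0.10, -0.03 and 0.21, and 1 of 3 *ref4-3* libraries correlated best with its own number, so the numbers were not taken to pair samples. With the replicate block, edgeR called 14.6% of all genes and 0 of 10 members, and the paired exact permutation p of the *MED5b* to *MED5a* difference was 0.25, the smallest it allows. Among the 42 other Mediator and polymerase genes, 3 were called higher and 2 lower, against 0 and 0 with the replicate block, 0 to 4 and 0 to 1 with a library left out. With a library left out, edgeR called 4.09 to 18.7% of all genes. Scaling by library totals alone, which shifts all genes upward in *ref4-3*, gave 11 higher and 1 lower, and no filter gave 0 higher and 2 lower. The cause of the loss under the block was not tested. Over all genes, edgeR called 20.4% with all libraries and 4.09% without *ref4-3* replicate 3. Members had at least 122 counts per library, and with 3 libraries per genotype the exact test of the *MED5b* to *MED5a* ratio could not reach 0.05.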

Other observations

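The genes whose log2 CPM over the 6 libraries followed that of *MED5b* most closely, of 19052 compared, were *CHB3* (AT4G34430, Pearson r = 0.998), AT2G46560 (0.994), AT1G53050 (0.993), *SPK1* (AT4G16340, 0.993) and AT1G27750 (0.991). *CHB3* encodes a SWI3-type subunit of chromatin remodellers, and *SPK1* an exchange factor for ROP GTPases. These values describe 6 libraries that share their spread between replicates. Among the members, *MED13* (0.94) and *MED12* (0.87) were most like *MED5b*, and *MED5a* (0.21) and *CDK8* (-0.15) least. *MED13* ranked 331 and *MED12* 1065 among the 19052 genes compared.

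*MED5b* begins directly after AT2G48100 on the same strand, which had 49.7 ± 4.73 CPM in *ref4-3* and 42.9 ± 2.91 CPM in wild type (SD, n = 3 each; adjusted p = 0.224 in edgeR). The gene that follows, AT2G48120, was called higher in *ref4-3*, at 47.8 ± 3.87 CPM in *ref4-3* and 31.1 ± 3.43 CPM in wild type (SD, n = 3 each; log2 fold change 0.62, adjusted p = 0.0174 in edgeR). *MED5b* itself, which lies between them, was not called.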
